A study of Xenopus laevis with 6 samples.

Results

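The phyhd genes of Xenopus laevis, the African clawed frog, were taken as every row of the count table whose symbol starts with phyhd. This gave 6 genes of 42638. There were 5 phyhdl genes, all on chromosome 8L (phyhdlc.1.L, phyhdlc.2.L, phyhdlb.L, phyhdla.1.L and phyhdla.2.L), and 1 phyhd1 gene on chromosome 8S (phyhd1.S). The endings .L and .S name the long and short subgenomes of this allotetraploid frog, and all 5 phyhdl rows carried the ending .L. The family was chosen by the large log2 fold changes of phyhdlb.L and phyhdlc.2.L between these Xenobots and embryos, so the levels of its members in that comparison are a description and carry no p-value.

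RNA was sequenced from 3 pools of Xenobots and from 3 pools of whole embryos, with no transgene and no drug in either group. A Xenobot is a self-moving body that forms from ectoderm (animal cap tissue) cut out of a stage 9 embryo. Each Xenobot pool held 50 Xenobots on day 7, grown at 14 °C in 0.75X MMR, a Ringer's salt solution. Each embryo pool held 10 intact sibling embryos of stage 35, the same age, kept at 14 °C in 0.1X MMR. Medium and group changed together and cannot be told apart here. The labels do not say whether pools came from separate matings. The study's methods state for all experiments that replicates came from independent batches, without saying what a batch was. The p-values therefore measure the spread between these pools, which may be technical.

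Phytanoyl-CoA 2-hydroxylase (PHYH), after which the family is named, is a peroxisomal enzyme that uses iron and 2-oxoglutarate. In humans it starts alpha-oxidation, the pathway that shortens phytanic acid, a branched-chain fatty acid from the diet that cannot enter beta-oxidation directly, and its loss causes Refsum disease. PHYHD1 is a related 2-oxoglutarate-dependent dioxygenase in humans. The gene annotation used here gives the phyhdl copies a symbol but no enzyme activity, and none is assumed below. One of them, phyhdlb.L, also carries the synonym orga04.

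Xenobot pools totalled 13597538 to 20325075 estimated counts, 26.4 to 36.9% of them in rRNA genes, and embryo pools totalled 17533207 to 22225123, with 27.1 to 40.7% in rRNA genes. Levels are given as CPM (counts scaled to a library of fixed size, corrected with TMM factors). A gene was called higher or lower where its adjusted p was under 0.05 and its log2 fold change, Xenobot over embryo, passed 2 or -2. Of all tested genes, 20.5% were called lower in Xenobots. Genes of organs that an ectoderm explant lacks were nearly all called lower, with 23 of 23 tested muscle gene copies, 18 of 21 neural copies and 26 of 29 copies of blood, liver and gut genes. Their summed CPM was 25.36 to 259.4 in Xenobot pools and 6203 to 9912 in embryo pools for muscle, 93.57 to 101.9 in Xenobots and 620.2 to 892.8 in embryos for neural genes, and 149.4 to 161.2 in Xenobots and 5750 to 5962 in embryos for blood, liver and gut. Tissue makeup therefore moved with every comparison below. In bulk RNA, fewer cells of a type and less RNA per cell cannot be told apart.

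All 5 phyhdl genes were much higher in Xenobots than in embryos, by 13.1 to 107.8 times, while the pools of phyhd1.S overlapped between groups and the gene was not called. The gene with the highest level was phyhdla.1.L (8L:36630708-36633302 of the Xenopus_laevis_v10.1 assembly). It had 180.5, 204.6 and 350.5 CPM in Xenobot pools 1, 2 and 3, and 4.663, 8.466 and 7.1 CPM in embryo pools 1, 2 and 3. Every Xenobot pool lay far above every embryo pool, and the log2 fold change was 5.18 (SE 0.30). Among all 26752 genes tested, only 1.05% had a higher mean CPM in Xenobots, whereas 54.4% did in embryos.

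Its tandem neighbour phyhdla.2.L (8L:36639474-36642339) had 24.31, 30.07 and 22.73 CPM in Xenobots and 1.9, 1.123 and 0.6828 CPM in embryos. The groups did not overlap, and the log2 fold change was 4.47 (SE 0.34). The copy phyhdlb.L (8L:36557746-36560388) had 47.2, 34.74 and 67.56 CPM in Xenobots and 0.09538, 0.7109 and 0.9973 CPM in embryos. It had the steepest difference of the family, 6.75 (SE 0.76) on the log2 scale, and rank 9 of all tested genes by log2 fold change. The size of that difference rested on few embryo reads, with 2.04, 13.14 and 21.44 estimated counts in the 3 embryo pools. Without embryo pool 1 the log2 fold change of phyhdlb.L was 5.77, and without embryo pool 3 it was 7.37.

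At the other end of the group, phyhdlc.1.L (8L:36398576-36401392) had 109.4, 109.6 and 199.3 CPM in Xenobots and 11.2, 10.17 and 9.209 CPM in embryos. It was the copy with the highest level in embryos and the smallest difference of the 5, a log2 fold change of 3.72 (SE 0.24). Next to it, phyhdlc.2.L (8L:36409574-36412435) had 23.42, 20.63 and 22.73 CPM in Xenobots and 0.1912, 0.4658 and 0.4317 CPM in embryos, again with no overlap (5.94 on the log2 scale, SE 0.35). The Xenobot pools agreed closely for this gene, with a coefficient of variation of 6.53%, against a median of 16.2% over all tested genes. Its embryo pools did not, at 41.2% against a median of 11.7%. The Xenobot coefficient was 15% for phyhdla.2.L, 33.2% for phyhdlb.L, 37.2% for phyhdlc.1.L and 37.5% for phyhdla.1.L. The embryo coefficient was 49.9% for phyhdla.2.L, 76.7% for phyhdlb.L, 9.77% for phyhdlc.1.L and 28.6% for phyhdla.1.L. No embryo pool exceeded the filter minimum of 0.6 CPM for phyhdlc.2.L, so it was tested only through its level in Xenobots and had to differ. For phyhdlb.L only 2 embryo pools exceeded that minimum, fewer than the 3 libraries needed. It too was therefore tested only through its level in Xenobots.

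The last member, phyhd1.S (8S:34449211-34456791), had 6.392, 6.717 and 5.037 CPM in Xenobots and 6.125, 4.22 and 4.652 CPM in embryos. The groups overlapped, with means of 6.049 ± 0.891 CPM in Xenobots and 4.999 ± 0.999 CPM in embryos (SD, n = 3 pools each) and a log2 fold change of 0.31 (SE 0.20). All 6 members passed the filter, and 5 were called higher and 0 lower in Xenobots, beside 5.75% of all tested genes called higher and 20.5% called lower. The 5 called members were also those whose pools did not overlap, which 32.8% of all tested genes showed in the same direction. Nothing is read from these counts, since the same comparison chose the genes.

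**Figure D1:**
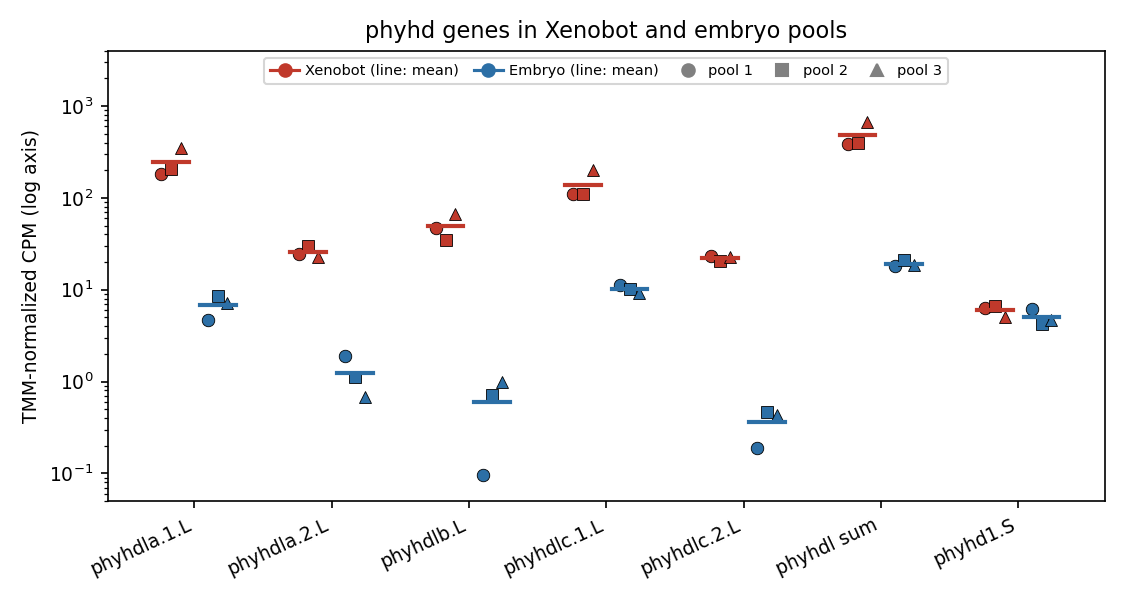
TMM-normalized CPM on a log axis of the 6 phyhd genes and of the summed phyhdl counts in each Xenobot pool (left of each pair) and each embryo pool (right), with symbols for pools 1 to 3 and lines for the means. For the 5 phyhdl genes every Xenobot pool lies above every embryo pool, whereas for phyhd1.S the groups overlap.

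The 5 phyhdl copies shared reads with one another. Estimated counts of single copies were almost never whole numbers (within 0.02 of a whole number in 0 or 1 of 6 pools per copy), which occurs where a read fitting several genes is divided among them. The sum over the 5 copies was whole in 6 of 6 pools, and phyhd1.S alone was whole in 6 of 6. Differences between single copies therefore depend on how the reads were divided, and the sum does not. That sum was 5598.99, 8507 and 7896 counts in Xenobot pools and 386, 387 and 396.01 in embryo pools, or 384.8, 399.6 and 662.8 CPM in Xenobots and 18.05, 20.94 and 18.42 CPM in embryos. The summed level had a log2 fold change of 4.62 (SE 0.20), or 24.6 times. Computed from the authors' table of adjusted log2 values, the difference was 3.78 on the log2 scale. The summed CPM was even among embryo pools (19.14 ± 1.57 CPM, SD, n = 3), whereas Xenobot pool 3 stood above the other Xenobot pools (482.4 ± 156.4 CPM, SD, n = 3).

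The mixture of copies also differed. In Xenobots phyhdla.1.L took 50.3% ± 3.09 of the summed phyhdl counts and phyhdlc.1.L took 28.6% ± 1.37. In embryos the order was turned round, with 34.9% ± 7.94 for phyhdla.1.L and 53.6% ± 7.42 for phyhdlc.1.L (SD, n = 3 pools each). The pools of the groups did not overlap for either copy. The share of phyhdlb.L was 10.4% ± 1.81 in Xenobots and 3.11% ± 2.45 in embryos, again without overlap. For phyhdlc.2.L it was 4.89% ± 1.35 in Xenobots and 1.87% ± 0.707 in embryos. For phyhdla.2.L it was 5.76% ± 2.1 in Xenobots and 6.52% ± 3.54 in embryos, where the pools overlapped. The family was chosen by the large fold changes of phyhdlb.L and phyhdlc.2.L, so nothing is read from their larger shares in Xenobots.

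**Figure D2:**
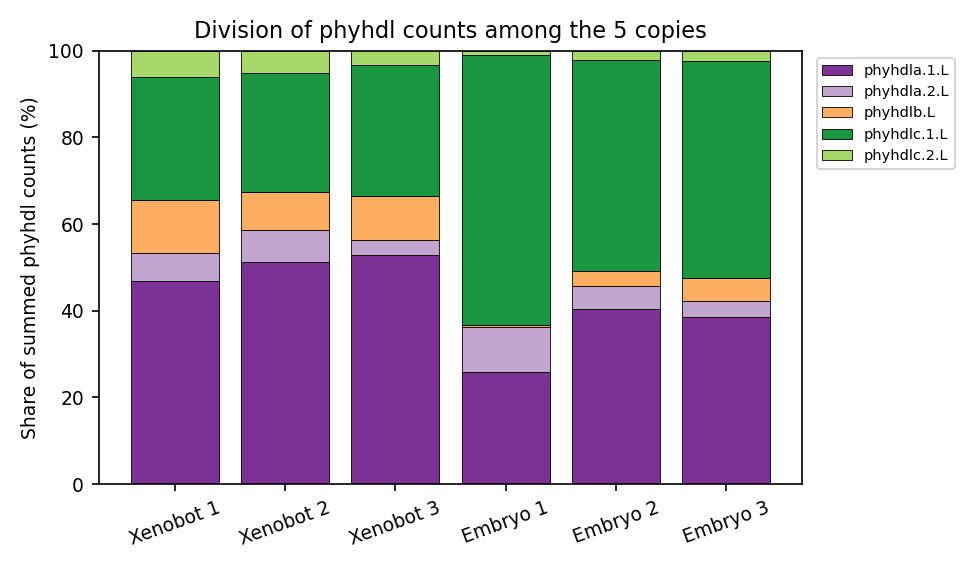
Share of the summed phyhdl counts, in percent, taken by each of the 5 copies in each pool, Xenobot pools on the left and embryo pools on the right. The largest share is that of phyhdla.1.L in every Xenobot pool and that of phyhdlc.1.L in every embryo pool.

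To compare levels between copies, CPM was divided by the annotated span of each gene, which includes introns and so only approximates the transcript length. Per kilobase of span the level in Xenobots was 94.5 ± 35.4 CPM for phyhdla.1.L, 49.5 ± 18.4 for phyhdlc.1.L, 18.9 ± 6.31 for phyhdlb.L, 8.97 ± 1.35 for phyhdla.2.L and 7.78 ± 0.505 for phyhdlc.2.L (SD, n = 3). In this order the ranges over pools of the first pair and of the last pair overlapped, although phyhdla.1.L was above phyhdlc.1.L within each Xenobot pool. In embryos the level per kilobase was 3.62 ± 0.355 CPM for phyhdlc.1.L, 2.60 ± 0.74 for phyhdla.1.L, 0.431 ± 0.215 for phyhdla.2.L, 0.227 ± 0.174 for phyhdlb.L and 0.127 ± 0.0524 for phyhdlc.2.L. The ranges of the first 2 copies only just did not overlap (lowest phyhdlc.1.L pool 3.27, highest phyhdla.1.L pool 3.26). The range of phyhdlb.L overlapped those of phyhdla.2.L and phyhdlc.2.L, which did not overlap each other. In these estimates both tandem pairs (phyhdla.1.L with phyhdla.2.L, and phyhdlc.1.L with phyhdlc.2.L) held 1 copy at a high and 1 at a low level in both groups. The estimates depend on how shared reads were divided among the copies.

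The phyhdl genes lie close together on 8L, and the genes between them were examined next. The choice of members did not use these genes, but they were added after their values had been seen. Their p-values are therefore a description. Of 13 other genes annotated between phyhdlc.1.L and phyhdla.2.L, 11 had a row of counts and 9 passed the filter. All 9 were called higher in Xenobots (limma, adjusted p from 2.35e-07 to 3.36e-05), with a median log2 fold change of 4.89 and a range of 3.07 to 7.09. Over all tested genes the median was -0.07, and 5.75% were called higher. The summed level of the 9 genes was 982.3 to 1436 CPM in Xenobot pools and 34.14 to 47.09 CPM in embryo pools. None of the 9 overlapped between groups, and 32.8% of all tested genes were free of overlap in the same direction.

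The most abundant of these neighbours was acod1lb.L, which also carries the synonyms irg1 and xirg. In mouse macrophages the enzyme Acod1 (Irg1) makes itaconate from an intermediate of the citric acid cycle, but no activity is annotated for this frog copy. It had 264.3, 403.7 and 450.3 CPM in Xenobots and 5.045, 9.427 and 10.19 CPM in embryos, a 46.4-fold difference (limma, adjusted p = 4.7e-07). The related genes elsewhere in the genome did not follow it. acod1.S on 2S had 0.8935, 1.025 and 1.326 CPM in Xenobots and 0.9351, 1.618 and 0.4865 CPM in embryos (0.25 on the log2 scale, adjusted p = 0.643 by limma), and acod1.L on 2L was too low to be tested, with at most 3.19 counts in a Xenobot pool and 9 in an embryo pool.

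Symbols with the stem gatd3al also lay between the phyhdl genes. gatd3alc.1.L had 199.4, 259.3 and 343 CPM in Xenobots and 10.8, 12.32 and 15.44 CPM in embryos (4.36 on the log2 scale, SE 0.21, adjusted p = 4.33e-07 by limma). The other 2 are annotated as transcribed pseudogenes, and they were higher in Xenobots by 8.37 times (gatd3alc.2.L) and 16.7 times (gatd3alb.1.L). Their relative gatd3a.L on 2L was not called (log2 fold change -0.57, limma, adjusted p = 0.166). The pair satpb.L and satpa.L, for which no role is given here, were higher by 38.1 and 29.6 times. satpb.L had 58.11, 49.01 and 59.67 CPM in Xenobots and 1.096, 1.281 and 2.045 CPM in embryos. The steepest neighbours were the unnamed loci LOC121393060 and LOC108698346, at 136.7 and 136.6 times, with no overlap between pools. The size of both differences rested on few embryo reads. Embryo pools 1, 2 and 3 had 11.47, 12.81 and 19.21 estimated counts for LOC121393060, and 9.64, 30.29 and 14.13 for LOC108698346. Embryo pool 1 was under the filter minimum for LOC108698346, so that gene was tested only through its level in Xenobots.

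Calls ended within a few genes on either side. Of the 5 annotated genes before phyhdlc.1.L, LOC108698345 and LOC108698349 were called higher, at 17.4 and 19.9 times. The next tested gene outward, atp7a.L (a copper-transporting ATPase), was at 0.58 on the log2 scale (SE 0.10, adjusted p = 0.000515 by limma), under the fold threshold, and cox7b.L (a cytochrome c oxidase subunit) was at -0.03 (SE 0.16, adjusted p = 0.87). Of the 5 genes after phyhdla.2.L, LOC108698357, a transcribed pseudogene, was called higher, at 19.1 times. Beyond it zbtb33.L (Kaiso, a methyl-CpG-binding transcription factor) was at -0.14 on the log2 scale (SE 0.16, adjusted p = 0.445 by limma) and tmem255a.L at -0.80 (SE 0.30, adjusted p = 0.0411). A further 15 annotated genes on each side were added after these values had been seen. Of 9 tested genes further out than cox7b.L, 0 were called higher and 1 lower (LOC108698341). Of 11 tested genes beyond tmem255a.L, 0 were called, with log2 fold changes from -1.26 to 1.39 and some adjusted p under 0.05 (lowest 4.14e-05).

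**Figure D3:**
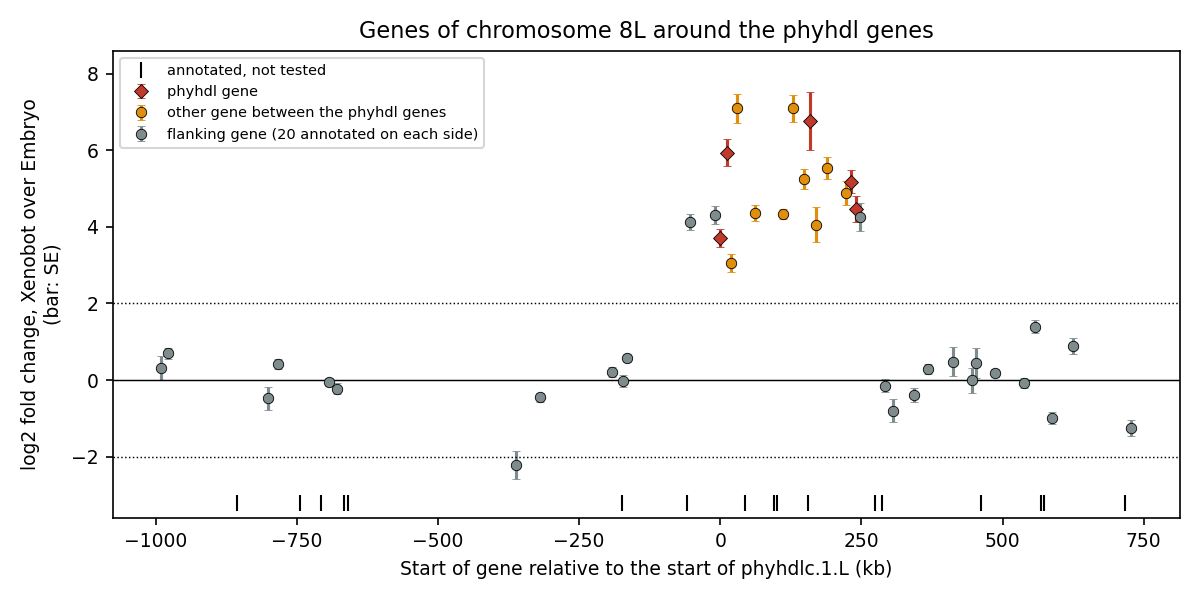
log2 fold change (Xenobot over embryo, bars give the SE) of tested genes on 8L against the distance in kb of each gene's start from the start of phyhdlc.1.L, with ticks at the bottom for annotated genes that were not tested and dotted lines at the thresholds of 2 and -2. Phyhdl genes and the other genes among them lie at 3.07 to 7.09, and 3 flanking genes next to them lie at a like height, while further out no gene passes 2 and 1 passes -2.

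Consecutive tested genes called higher were then counted along every chromosome, a scan also chosen after seeing the data. The stretch around the phyhdl genes was the longest of 1307 such runs, with 17 genes in a row from LOC108698345 to LOC108698357 (8L:36345299-36648937, 303.6 kb), 5 phyhdl genes and 12 others. The next run had 10 genes and 1157 runs were a single gene. All 17 genes were free of overlap between groups, and their median log2 fold change was 4.47. Only genes already called higher can enter a run, which favours both results. The family of the 5 phyhdl genes was also chosen by the same comparison. Nothing is therefore read from the length of the run, from the lack of overlap or from the height of the median. Together the 17 genes took 0.155, 0.201 and 0.221% of all counts in Xenobots and 0.00813, 0.00874 and 0.00809% in embryos. The 12 other genes too had fractional counts, as in gatd3alc.1.L and acod1lb.L, while their sum was within 0.05 of a whole number in 6 of 6 pools. Reads that fitted several genes were therefore divided within the stretch, and how far this made single genes of it move alike was not tested.

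**Figure D4:**
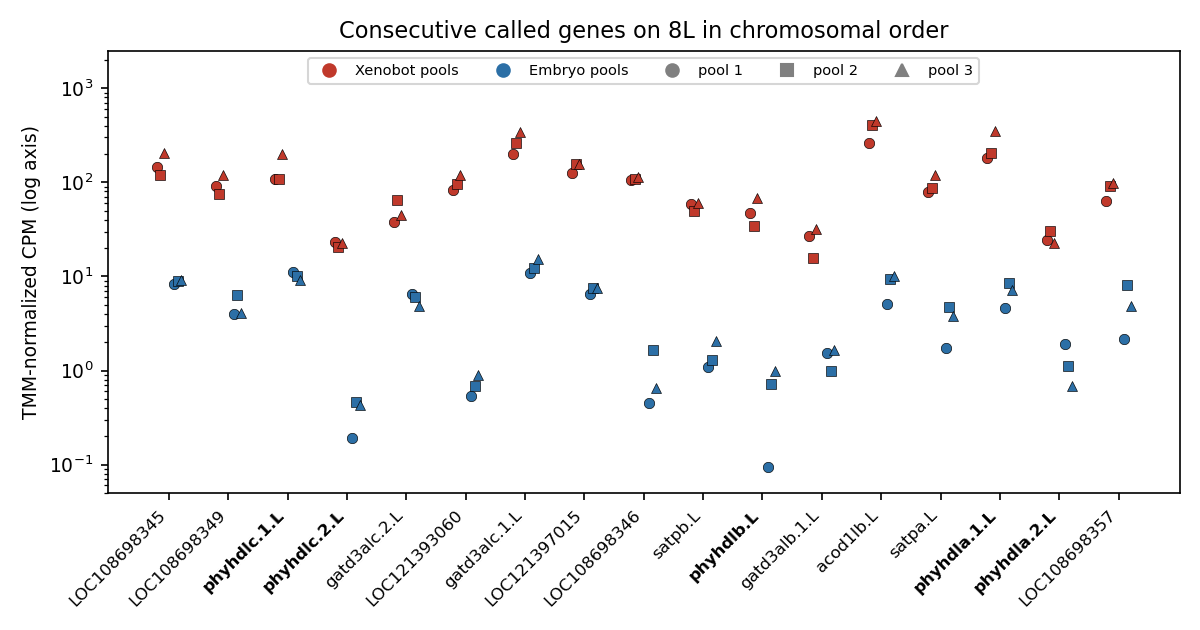
TMM-normalized CPM on a log axis of the 17 consecutive called genes of 8L in chromosomal order, Xenobot pools left and embryo pools right of each tick, with phyhdl genes in bold. In all 17 genes the 3 Xenobot pools lie above the 3 embryo pools, by 8.37 times (gatd3alc.2.L) to 136.7 times (LOC121393060).

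Among Xenobots, pool 3 was the highest pool for 3 of the 5 phyhdl genes and for 11 of the 12 others in the stretch, beside 9306 of all 26752 tested genes. The genes whose pattern over the 6 pools was nearest to that of the summed phyhdl counts were sought among 11818 genes averaging at least 10 CPM, by Euclidean distance of centred log2 CPM. They were gatd3alc.1.L (distance 0.577), LOC108698349 (0.609), LOC121397015 (0.637), LOC100137623 (0.666) and LOC108698345 (0.671). Of these 5, all but LOC100137623 on 6L came from the same stretch of 8L, whereas the genes at ranks 6 to 10 all lay outside it. The distance takes in the difference between groups by which the family was chosen. A like fold change alone can therefore bring a gene near, and nothing is read from this likeness.

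On the short subgenome the order of genes after zbtb33.S was followed for the same region. The nearest gene with a related symbol was gatd3ala.S, which had 1, 2 and 3 counts in Xenobots and 1, 3 and 5 in embryos and was not tested. Around it zbtb33.S (log2 fold change -0.33, limma, adjusted p = 0.0147), tmem255a.S, picalml.S, LOC121397750 and vbp1.S were not called. gab3.S, a docking adaptor of receptor signalling, was called lower at -2.80 (SE 0.42; adjusted p = 0.000206), as was the lncRNA LOC108700094 at -2.09 (SE 0.49; adjusted p = 0.0039). LOC108700091, LOC108700092 and LOC121397577 were too low to be tested.

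Of the tested copies of phyh and hacl1, the enzymes that hydroxylate and then cleave phytanoyl-CoA, none passed the fold threshold. phyh.S, the copy of PHYH with measurable reads, had 13.06, 17.05 and 14.52 CPM in Xenobots and 9.866, 9.63 and 10.28 CPM in embryos. The groups did not overlap, and the gene was 1.5 times higher in Xenobots (0.59 on the log2 scale, SE 0.13, adjusted p = 0.00323 by limma). phyh.L had 4, 7 and 6 counts in Xenobots and 5, 12 and 8 in embryos and was not tested. hacl1.L encodes the lyase that cleaves the product of PHYH. It had 14.16, 14.84 and 11.67 CPM in Xenobots and 7.715, 7.358 and 6.931 CPM in embryos, also with no overlap (0.90 on the log2 scale, SE 0.14, adjusted p = 0.000273 by limma).

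Over all tested genes, 5.75% were called higher and 20.5% lower. Of 26 tested gene copies on a list of alpha-oxidation and peroxisomal branched-chain oxidation, 1 was called higher, 2 lower and 23 neither, with a median log2 fold change of 0.47. slc27a2.L, a very long chain acyl-CoA synthetase, had 34.16, 30.77 and 23 CPM in Xenobots and 4.208, 4.166 and 7.07 CPM in embryos, 5.77 times higher in Xenobots (SE 0.23 on the log2 scale, adjusted p = 7.97e-06 by limma). Its homeolog slc27a2.S had 0 counts in all Xenobot pools and was not tested. The 2 called lower were both copies of abcd2, a peroxisomal transporter of fatty acyl-CoA. abcd2.L had 0.2928, 0.1076 and 0.4197 CPM in Xenobots and 8.784, 8.061 and 7.034 CPM in embryos (log2 fold change -4.96, limma, adjusted p = 7.26e-06), and abcd2.S had a log2 fold change of -3.18 (adjusted p = 0.000163). With the 2 homeologs of each gene summed, 1 gene of this list was called lower.

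Beside the same shares over all tested genes (5.75% higher and 20.5% lower) stand the peroxisome assembly genes and catalase. They gave 0 higher, 1 lower and 20 neither of 21 tested copies, with a median of 0.19. The 1 called lower was pex5l.L. It stood on the list as a relative of the import receptor gene pex5, and no role in peroxisome assembly is assumed for it. It had 0 counts in all Xenobot pools and 30.11, 31 and 20.75 counts in embryo pools, at least 6.76-fold lower when 3 counts per pool are taken as the floor. The peroxisome division gene pex11g.L lay just under the fold threshold, at 1.93 on the log2 scale (adjusted p = 0.000241 by limma), and was called higher, at 2.06, without Xenobot pool 2. Its homeolog pex11g.S was at 0.36.

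The family of other oxygenases that use iron and 2-oxoglutarate, such as collagen hydroxylases and histone demethylases, had 0 higher, 3 lower and 68 neither of 71 tested copies, with a median of 0.10. For this list and the next ones, the shares over all tested genes were again 5.75% higher and 20.5% lower. p4htm.L, a transmembrane prolyl hydroxylase, was at least 7.34-fold lower. tmlhe.S, the first enzyme of carnitine synthesis, was lower at -2.80 (SE 0.34; limma, adjusted p = 5.5e-05), and plod2.L, a lysyl hydroxylase of collagen, was lower at -2.03 (SE 0.22; adjusted p = 2.28e-05). Their homeologs tmlhe.L (-0.75) and plod2.S (-0.07) were not called. Among 21 tested copies of genes that make, carry or consume 2-oxoglutarate, 0 were higher, 1 was lower and 20 neither, with a median of -0.21. That 1 was got2.S, a mitochondrial aspartate aminotransferase, with 9.111, 12.4 and 7.422 CPM in Xenobots and 35.65, 49.68 and 47.71 CPM in embryos (log2 fold change -2.16, limma, adjusted p = 9.16e-06). Its homeolog got2.L was at -1.50 and was not called. phyhipl.S, of the PHYH-interacting proteins, was lower at -2.46 (SE 0.29; limma, adjusted p = 4.26e-05), while phyhip.L and phyhip.S were too low to be tested. The 3 counts of 0 called higher in these lists came from limma, and were also 0 with edgeR's quasi-likelihood test and with DESeq2. At an unadjusted p under 0.05, whatever the fold, limma had 7 of the peroxisome assembly copies and 26 of the other oxygenase copies higher in Xenobots. It also had 3 of the copies that make, carry or consume 2-oxoglutarate higher, and 14 of the 26 tested copies of the alpha-oxidation list. The share of all tested genes at that unadjusted p is not given here, so nothing is read from these counts.

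**Figure D5:**
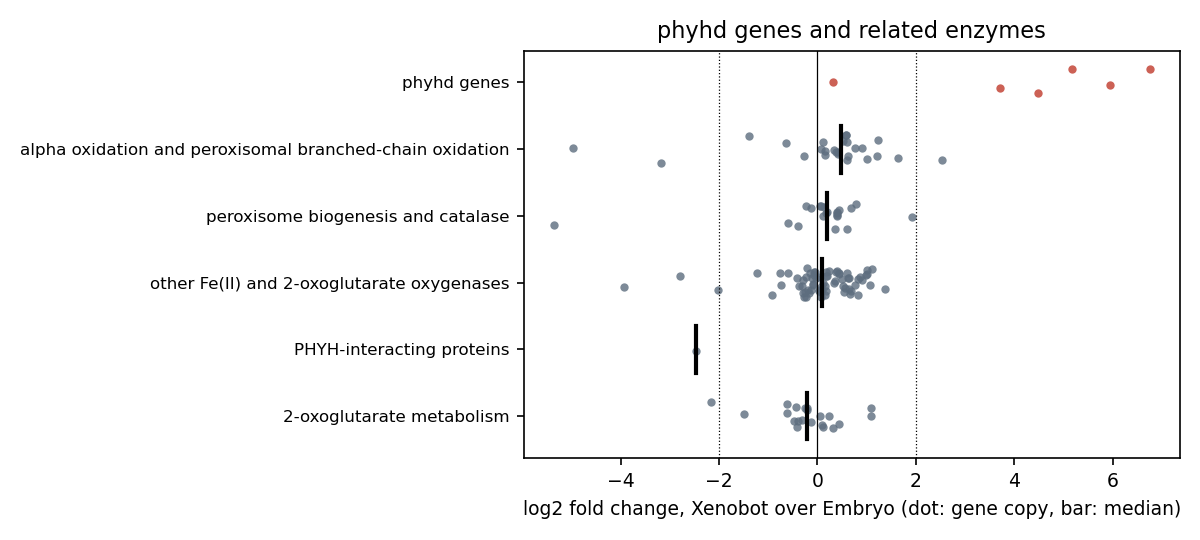
log2 fold change (Xenobot over embryo) of each tested gene copy of the phyhd genes and of the 5 related lists, 1 dot per copy, with a bar at the median of each list and dotted lines at the thresholds of 2 and -2. Phyhd genes other than phyhd1.S lie between 3.72 and 6.75, and the medians of the related lists lie between -2.46 (1 copy) and 0.47; copies at or near 0 counts in Xenobots have fitted values that depend on the small count added before taking logs.

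Genes of the skin cells that an ectoderm explant forms had higher summed levels in Xenobots, although most copies of the epidermis, ionocyte and goblet cell lists were not called higher. Over all tested genes, 5.75% were called higher and 20.5% lower. The summed level of general epidermis genes was 3738 to 4966 CPM in Xenobots and 1434 to 1711 CPM in embryos, with 8 of 24 tested copies called higher and 2 lower. Multiciliated cell genes summed to 886.7 to 959.8 CPM in Xenobots and 366.6 to 453.2 CPM in embryos (13 copies higher and 3 lower of 23). Ionocyte genes summed to 862.1 to 1014 CPM in Xenobots and 380.1 to 421.8 CPM in embryos (5 higher and 1 lower of 19). These are the salt- and acid-handling cells of the skin. Goblet and small secretory cell genes summed to 4054 to 5550 CPM in Xenobots and 899.4 to 1259 CPM in embryos, although only 1 copy was called higher and 4 lower of 13. Stress and early injury genes summed to 1072 to 1211 CPM in Xenobots and 437.8 to 472.2 CPM in embryos, with 20 of 39 tested copies called higher and 1 lower. The 4 called stress copies with the largest change included mmp9.1.S, at least 270-fold lower in Xenobots. The others were higher, mmp9.2.L at 7.10 on the log2 scale, mmp9.2.S at 6.32 and cxcl8.S at 4.79. The size of these rested on few embryo reads, at most 24 estimated counts in a pool. Leukocyte genes summed to 20.39 to 24.35 CPM in Xenobots and 208.4 to 235.9 CPM in embryos, with 0 higher and 16 lower of 19, and lcp1.L, ptprc.L, laptm5.L and tyrobp.S were at 0 counts in all Xenobot pools. Median log2 fold changes of these lists were 1.23, 2.35, 1.53, -0.42, 2.03 and -5.24 in that order, beside 4.62 for the summed phyhdl counts. The part of cell makeup in the phyhdl difference was not tested.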

How the data were processed

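The authors made stranded, rRNA-depleted libraries and sequenced single-end reads of 75 bases. Per the labels and the study's methods, reads were trimmed with fastp, aligned with STAR to the Xenopus laevis genome version 10.1 and counted per gene with RSEM. The deposited values are RSEM estimated counts (expected counts), in which the authors' counting divided reads shared by similar genes. A second table deposited by the authors holds log2 CPM of 28009 genes after removal of surrogate variables, which can remove differences between pools, and it served only as an alternative. There were 0 columns of other samples.

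Groups and replicate numbers came from the sample titles. Genes with CPM above 0.6 in at least 3 libraries were kept (26752), scaled with TMM in edgeR 4.0.16, and fitted with voom and limma 3.58.1 (R 4.3.3). The model held only the group, with Benjamini-Hochberg adjustment over all tested genes. Rounded counts went only into the quasi-likelihood test of edgeR and into DESeq2 1.42.0. Scripts were tested on simulated data. Positions, biotypes and synonyms came from RefSeq for Xenopus_laevis_v10.1, in which 26751 tested genes were found. Floors of 3 counts cover counting error only.

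The members and lists were chosen with earlier results of these data known. Named were all phyhd rows, the 5 genes on each side of the phyhdl genes and around the 8S region, and every phyh, hacl1, phyhip and phyhipl copy. Up to 4 called genes with the largest change were named of each pathway list and of the stress list. The 5 genes most like the summed phyhdl counts were named too. Genes between the phyhdl genes, relatives elsewhere, pex11g.L and the leukocyte genes at 0 were added after their values were seen. Alternatives were other tests, scalings and filters, a replicate block, the second table, summed homeologs, removed rRNA genes and left-out pools.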

Additional observations from a re-analysis of the deposited data

How the results depend on the processing

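In all 15 alternatives the 5 phyhdl genes were called higher and phyhd1.S was not, and the run of called genes around them held 17 or 18 genes. Leaving out each pool in turn gave log2 fold changes of 4.88 to 5.38 for phyhdla.1.L, 4.09 to 4.86 for phyhdla.2.L, 5.77 to 7.37 for phyhdlb.L, 3.43 to 3.87 for phyhdlc.1.L, 5.55 to 6.15 for phyhdlc.2.L and 4.36 to 4.77 for the sum. The deposited adjusted values gave smaller differences, 4.43 for phyhdla.1.L, 5.76 for phyhdlb.L, 2.82 for phyhdlc.1.L, 4.56 for phyhdlc.2.L and 3.78 for the sum, and the cause was not tested. The peroxisome list had 1 member called higher (pex11g.L) in those values, and 0 to 1 when pools were left out. It had 2 called lower (pex5l.L and pex5l.S) with no filter or with rRNA genes removed, and 0 with a mean CPM above 1, a filter that tests fewer low genes. With homeologs summed, 1 member was called lower in alpha-oxidation, 1 among other oxygenases and 0 among genes that make, carry or consume 2-oxoglutarate. Over all genes, 1346 to 1981 were called higher and 4496 to 6966 lower. With total-count scaling the median over all genes was -0.21 on the log2 scale, against -0.07 with TMM.

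Correlations of deviations between Xenobot and embryo pools were 0.0568, 0.0531 and 0.0105 for same-numbered pools. For differently numbered pools they ran from -0.0712 to 0.0214. All were small, and they do not settle whether the replicate numbers pair the pools. With the replicate number as a block the sum had a log2 fold change of 4.62, 5 members were called higher and 0 lower, and 1543 genes were called higher and 5383 lower over all genes. A search of promoter motifs was not run, since no sequence was used here. The division of shared reads among the phyhdl copies limits single-copy values. Low embryo counts limit phyhdlb.L, phyhdlc.2.L, LOC121393060 and LOC108698346.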

Other observations

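The next longest runs of consecutive called genes lay on other chromosomes. One of 10 genes on 5L (5L:108852536-109141661) had a median of 2.67 on the log2 scale, and one of 7 genes on 6L (6L:160682849-160847532), which included lypd2.L, had a median of 3.35. Both were below the median of 4.47 in the run that holds the phyhdl genes. That family was chosen by its fold changes and only called genes enter a run, so nothing is read from this order.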
